A study of Arabidopsis thaliana with 4 samples.

Results

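UGT genes encode the family of plant enzymes that transfer a sugar from a UDP-sugar donor to a small molecule. The genes described here are all those with a symbol that starts with UGT and a digit and with a probe set that the platform annotation assigns to 1 gene. They are 47 of 13356 genes read in that way on Affymetrix expression arrays of whole seedlings of *Arabidopsis thaliana*, ecotype Col-0. Each had 1 probe set, so no choice between probe sets was needed. The control line, 35S-GVG, carried the dexamethasone-activated transcription factor GVG under the 35S promoter. The other line, UAS-RKD4 35S-GVG, carried GVG in the same way and in addition RKD4, an RWP-RK transcription factor of the early embryo, behind a promoter that GVG binds. Seedlings of both lines were moved to 1 µM dexamethasone at day 2 after germination for 24 h and reached day 3. There were 2 arrays a group, each with RNA from its own pool of 60 seedlings. Since both lines received dexamethasone and no untreated seedlings are among the samples, an effect of RKD4 and any other difference between the lines cannot be told apart.

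Attaching a sugar makes a small molecule more soluble, often inactivates it and prepares it for storage in the vacuole. In seedlings UGT enzymes act on hormones such as auxin, cytokinin, abscisic acid and salicylic acid, on phenylpropanoids and flavonoids, on glucosinolate precursors and sterols, and on foreign compounds. A UGT name gives first the family number and then a letter for the subfamily, both set by protein similarity. The substrates given below are those known for the enzymes and were not measured.

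Signals are linear intensity units of 1 probe set and are compared between arrays, not between genes. Changes are log2 differences of RKD4-induced over control ± SE with n = 2 arrays a group, computed on log2(signal + 32.4). The added constant, or pseudocount, is the 25th percentile of all values and makes the change of weak genes look smaller. A gene rose or fell where limma's two-sided test gave an adjusted p under 0.05 (Benjamini-Hochberg over 22746 probe sets). Median signals of the arrays lay between 175 and 185. The gene table assigned no probe set to RKD4, so its induction was not checked. Of leaf photosynthesis markers 4 of 10 had a probe set. Their summed signals were 78319 and 88485 in control and 75365 and 71920.1 in induced seedlings. PORB fell (-0.54 ± 0.11, adjusted p = 0.0202), while RCA, LHCB4.1 and PSAN did not pass. Of root and root hair markers 2 of 5 had a probe set, EXPA7 and EXPA18. Their summed signals were 1695 and 1311 in control and 827 and 882 in induced seedlings. Both genes fell (adjusted p = 0.0126 and 0.0205). The single seed marker read of 7, PAP85, had 64.8 and 35.6 in control and 1.55 and 13.2 in induced seedlings. PAP85 fell too (-1.05 ± 0.25, adjusted p = 0.0311), with both induced values under the pseudocount. In RNA of whole seedlings, fewer cells of a type and less RNA per cell cannot be told apart. The part of the lower marker signals in the results below was not tested.

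Of the 47 UGT genes 15 fell, 5 rose and 27 did not pass the test. The falls made up 31.9% of the UGT genes, against 10.4% of all 13356 genes and 14.5% of the 1557 genes with a symbol other than their locus. The rises made up 10.6%, close to the background of 9.59% of all genes and 12.3% of genes with a symbol. The median change of the UGT genes was -0.36, against -0.07 over all genes. Changes were below 0 in 34 UGT genes, or 72.3%, against 58.3% of all genes. Both induced arrays lay below both control arrays in 28 UGT genes, or 59.6%, against 35.8% of all genes, and above them in 11, or 23.4%, against 23.4%. All 20 genes that passed were among those without overlap between the groups. This is no separate support, since the test on the same arrays favours genes whose groups lie apart.

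The falls were of moderate size. They lay between -1.66 (UGT84A1) and -0.37 (UGT88A1), with a median of -0.90, and 3 of 47 genes fell at least 2-fold on this scale, against 2.31% of all genes. These were UGT84A1, UGT71C2 and UGT76B1. Only UGT74F1 rose at least 2-fold, against 4.36% of all genes. The adjusted p of the genes that passed lay between 0.00173 and 0.0476. Signals were above the pseudocount on every array in 18 of the 20.

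**Figure D1:**
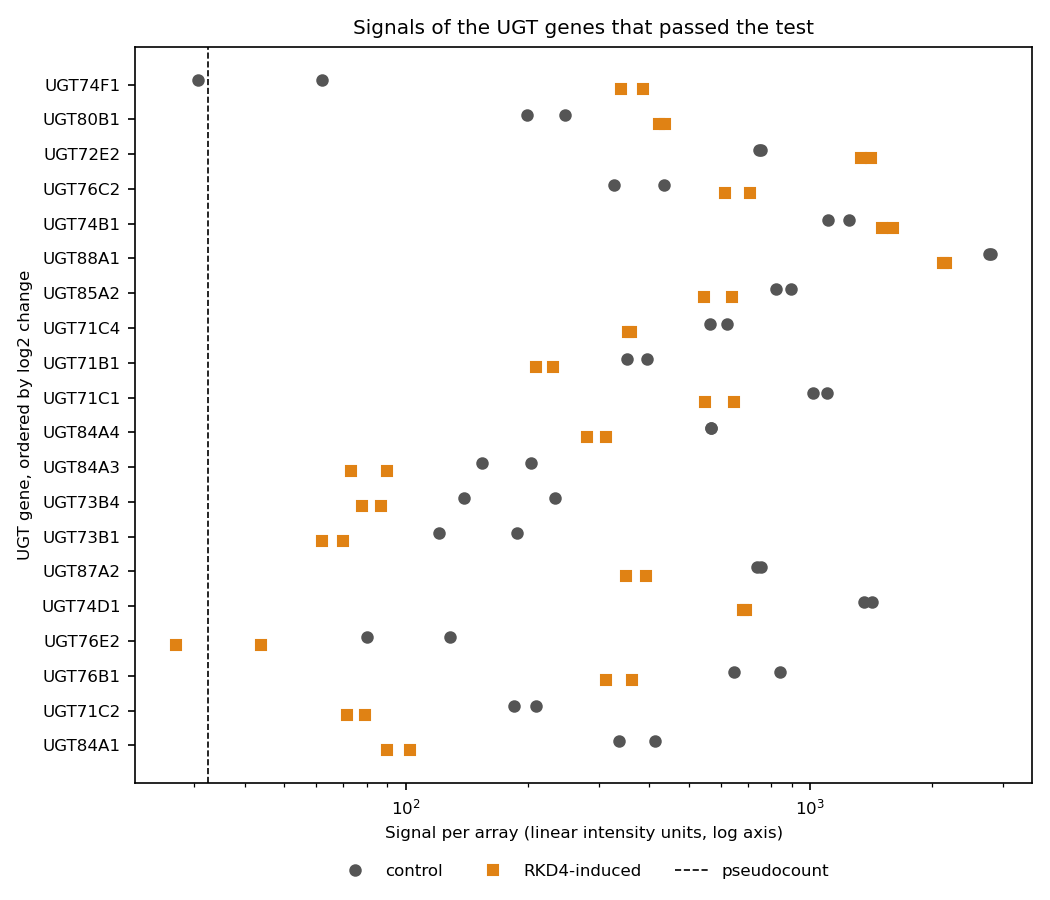
Signal of each UGT gene that passed the test on each of the 4 arrays (x, linear intensity units on a log axis), with control arrays as circles, RKD4-induced arrays as squares and the pseudocount of 32.4 as a dashed line. The arrays of the groups do not overlap in any of the 20 genes, and UGT74F1 shows the widest gap between its groups.

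The UGT84A enzymes glucosylate hydroxycinnamic acids, the phenolic acids from which sinapate esters are made. The transcripts of the 3 UGT84A genes read here fell, and UGT84A2, the sinapic acid enzyme gene, has no probe set named here. UGT84A1 (AT4G15480), whose enzyme accepts p-coumaric and related acids, read 412 and 337 on the control arrays and 90.0 and 102 on the induced arrays. Its mean signal was 374 ± 53.1 (SD) in control and 96.1 ± 8.62 in induced seedlings, a fall of 1.66 ± 0.17 (adjusted p = 0.00181). UGT84A4 (AT4G15500) read 567 on both control arrays and 281 and 312 on the induced arrays, a fall of 0.87 ± 0.12 (adjusted p = 0.00525). UGT84A3 (AT4G15490) read 203 and 154 in control and 73.3 and 89.9 in induced seedlings and fell by 0.88 ± 0.20 (adjusted p = 0.0261). The control arrays of UGT84A3 lay farther apart than those of UGT84A4, and its call was lost when any single array was left out (adjusted p up to 0.142, change between -1.05 and -0.71).

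The UGT72E enzymes act on monolignols, the alcohols and aldehydes that become lignin, and of their 3 genes 1 rose and the others did not pass. UGT72E2 (AT5G66690), which glucosylates coniferyl and sinapyl alcohol, read 755 and 746 in control and 1329.8 and 1414 in induced seedlings. It rose by 0.84 ± 0.10 (adjusted p = 0.00287). The coniferyl aldehyde enzyme gene UGT72E1 did not pass (0.22 ± 0.10, 95% interval -0.02 to 0.47), with 1074 and 1084 in control and 1333 and 1202 in induced seedlings. UGT72E3, whose enzyme acts on sinapyl alcohol, read 157 and 149 in control and 86.2 and 104 in induced seedlings and did not pass (-0.54 ± 0.17, adjusted p = 0.0735). The difference in change between these genes was not tested. UGT72B3, of the same family and with no substrate listed here, lay at 0.16 ± 0.13.

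Flavonoid and anthocyanin enzymes make plant pigments and sunscreens. Of the 5 genes placed in this class here and read under a UGT symbol, 2 fell and none rose, with a median of -0.40. The class was written from general knowledge, and genes with no substrate listed here are not counted in it. The anthocyanin enzyme gene UGT79B1, read under the symbol UF3GT and described further on, rose. UGT71C1 (AT2G29750), whose enzyme glucosylates flavonoids and other phenolics in the test tube, read 1101 and 1018 in control and 649 and 547 in induced seedlings, a fall of 0.80 ± 0.12 (adjusted p = 0.00743). UGT73B1 (AT4G34138), also active on flavonoids, read 188 and 120.4 in control and 70.1 and 61.9 in induced seedlings and fell by 0.90 ± 0.23 (adjusted p = 0.0375). Its control arrays lay far apart, and it passed in 1 of 4 fits with an array left out, the one without control replicate 2 (-1.17, adjusted p = 0.0451). UGT71C1 passed in 2 of 4 such fits, those that lacked control replicate 2 (-0.85) or induced replicate 1 (-0.91), and the adjusted p of the other fits reached 0.0596.

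The UGT78D enzymes attach the first sugar to flavonols, and none of their 3 genes passed. UGT78D1, a flavonol rhamnosyltransferase gene, read 1325 and 1329.7 in control but 789 and 1266 in induced seedlings, so the induced arrays disagreed (-0.40 ± 0.21, adjusted p = 0.236). Without induced replicate 2 it lay at -0.73 and passed (adjusted p = 0.0384), and without induced replicate 1 it lay at -0.07. UGT78D2, the flavonoid glucosyltransferase gene, read 2299.6 and 1851 in control and 1690.5 and 1538 in induced seedlings (-0.35 ± 0.13, adjusted p = 0.114). With the replicate number as a block UGT78D2 passed (adjusted p = 0.0320). The arabinosyltransferase gene UGT78D3 read under 4 on every array and says little about change.

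The gene that rose most was UGT74F1 (AT2G43840), whose enzyme makes the glucoside of salicylic acid, a hormone of defence against pathogens. It read 30.7 and 62.2 on the control arrays and 341 and 385 on the induced arrays. The rise was 2.35 ± 0.23 (95% interval 1.79 to 2.92, adjusted p = 0.00173), and the mean signal was 7.82-fold higher. One control array lay just under the pseudocount, and with a pseudocount of 1 the rise was 3.02. It passed in 4 of 4 fits with an array left out, with changes between 2.06 and 2.64.

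Another enzyme of salicylic acid moved the other way. UGT76B1 (AT3G11340), which glucosylates salicylic acid and the defence signals isoleucic acid and N-hydroxypipecolic acid, read 840.1 and 648 in control and 362 and 313 in induced seedlings. It fell by 1.06 ± 0.16 (adjusted p = 0.00672) and passed in 3 of 4 fits with an array left out; without induced replicate 2 its adjusted p was 0.0610. UGT76D1, which acts on dihydroxybenzoic acids, read 77.9 and 52.7 in control and 28.1 and 31.0 in induced seedlings and did not pass (-0.65 ± 0.20, adjusted p = 0.0685). The methyl salicylate enzyme gene UGT71C3 read between 67.9 and 77.7 on the 4 arrays, with a change of -0.08 ± 0.17. In this class of 4 genes 1 thus rose, 1 fell and 2 did not pass.

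Of 3 auxin enzyme genes 1 could be read well above the pseudocount. UGT74D1 (AT2G31750), which glucosylates oxidised indole-3-acetic acid, an inactive form of auxin, read 1422 and 1355 in control and 680.5 and 694 in induced seedlings. The fall of 0.98 ± 0.10 (adjusted p = 0.00173) had one of the smallest errors among the UGT genes, and UGT74D1 passed in 4 of 4 fits with an array left out. UGT84B1 and UGT84B2, whose enzymes act on auxin itself, read between 0.782 and 7.36 on all arrays and did not pass.

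The cytokinin N-glucosyltransferase genes UGT76C1 and UGT76C2 are neighbours on chromosome 5, and 1 of them passed. UGT76C2 (AT5G05860) read 327 and 435 in control and 617 and 708 in induced seedlings and rose by 0.76 ± 0.16 (adjusted p = 0.0226). UGT76C1 (AT5G05870) read 138 and 175 in control and 90.1 and 106 in induced seedlings and did not pass (-0.53 ± 0.19, adjusted p = 0.0952). The difference in change between them was not tested. UGT76C2 passed in 1 of 4 fits with an array left out, the one without control replicate 2 (0.95, adjusted p = 0.0365), and its adjusted p reached 0.135 in the others.

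Abscisic acid enzymes gave no call. UGT71C5, which glucosylates this stress and dormancy hormone, read 558 and 474 in control and 380.1 and 404 in induced seedlings (-0.37 ± 0.13, adjusted p = 0.0970). UGT71B6 and UGT71B8 read between 9.22 and 25.9 on all arrays, under the pseudocount. The one jasmonate gene, UGT76E1, read between 1.01 and 3.14.

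A sterol and a glucosinolate enzyme gene rose. UGT80B1 (AT1G43620), a sterol glucosyltransferase first known from pale seed coats of its mutant, read 199 and 248 in control and 438 and 422 in induced seedlings. It rose by 0.86 ± 0.15 (adjusted p = 0.0107) and passed without control replicate 2 (1.00, adjusted p = 0.0327), while its adjusted p reached 0.0832 in the other fits with an array left out. UGT74B1 (AT1G24100), which glucosylates thiohydroximates in the core pathway of glucosinolates, read 1103 and 1246 in control and 1600.1 and 1501 in induced seedlings. Its rise of 0.39 ± 0.11 was the smallest (adjusted p = 0.0476). It lost its call in 4 of 4 fits with an array left out (adjusted p up to 0.192), and also with quantile normalization (0.0576), without the variance trend (0.103) and with 1 probe set per gene (0.0507).

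**Figure D2:**
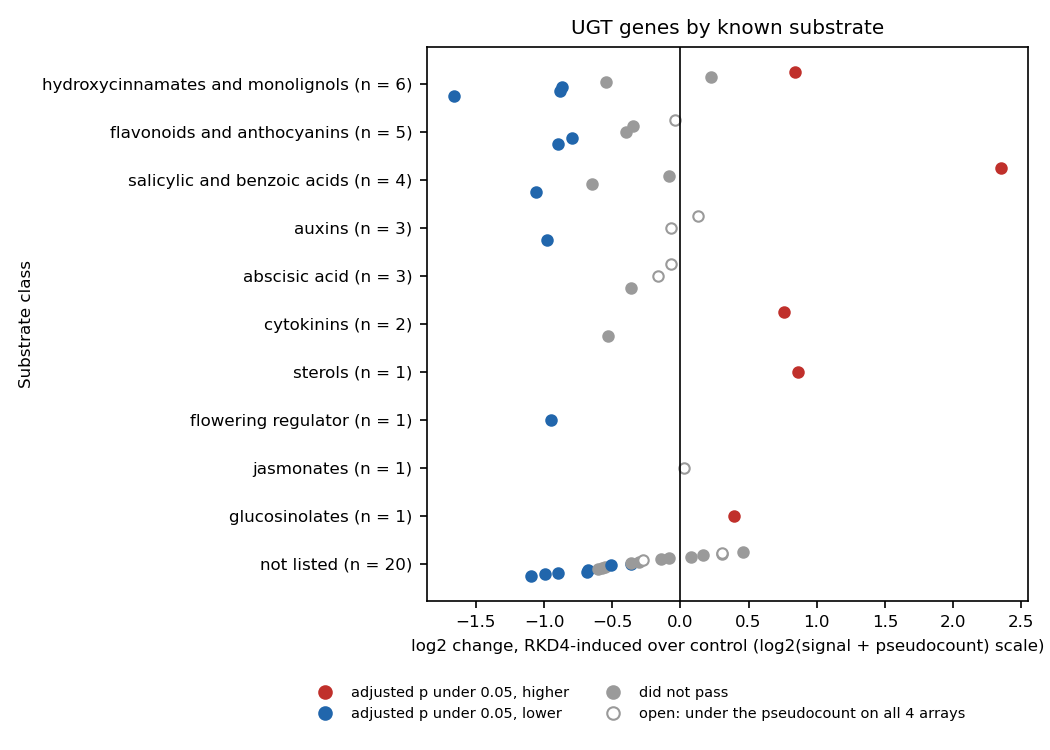
Log2 change of each UGT gene (x, RKD4-induced over control on the log2(signal + 32.4) scale) by the substrate class of its enzyme (y). The 20 genes with no substrate listed have a row of their own, and UGT87A2 stands alone as flowering regulator. Red points rose, blue points fell, grey points did not pass, and open points read under the pseudocount on all 4 arrays. The hydroxycinnamate and monolignol class holds 3 falls and 1 rise, and the salicylic and benzoic acid class holds the largest rise, UGT74F1, beside the fall of UGT76B1.

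Among the 20 genes with no substrate listed here and the flowering gene UGT87A2, 8 fell and none rose. UGT87A2 (AT2G30140), a regulator of flowering time, read 754 and 737 in control and 392 and 351 in induced seedlings, a fall of 0.95 ± 0.11 (adjusted p = 0.00328). UGT71C2 (AT2G29740) read 185 and 210.2 in control and 71.4 and 79.1 in induced seedlings and fell by 1.09 ± 0.17 (adjusted p = 0.00763). UGT71C4 (AT1G07250) read 563 and 621 against 361 and 355 and fell by 0.68 ± 0.12. Of these 3 genes, UGT87A2 had the control arrays that lay closest together. UGT71B1 read 352 and 396 against 209.5 and 232 and fell by 0.68 ± 0.14. UGT73B4, of a subfamily known for responses to stress and foreign compounds, read 234 and 139 against 77.7 and 86.6 and fell by 0.90 ± 0.24 (adjusted p = 0.0464). UGT76E2 read 80.0 and 129 against 44.0 and 27.1 and fell by 1.00 ± 0.25 (adjusted p = 0.0365). In the last pair the control arrays lay far apart, and UGT73B4 also lost its call with quantile normalization (adjusted p = 0.0568), without the variance trend (0.0503) and with 1 probe set per gene (0.0543). UGT85A2 read 898 and 821 against 641 and 547 and fell by 0.51 ± 0.12. UGT88A1 read 2758 and 2799 against 2169 and 2129, and its fall of 0.37 ± 0.09 was the smallest. With arrays left out in turn UGT87A2 passed in 4 of 4 fits and UGT71B1, UGT76E2, UGT85A2 and UGT88A1 in none, with adjusted p up to 0.104, 0.183, 0.148 and 0.144. UGT71C2 (-1.17, adjusted p = 0.0423) and UGT71C4 (-0.74, 0.0486) passed without control replicate 1 alone and UGT73B4 (-1.22, 0.0391) without control replicate 2 alone. UGT76E2 also lost its call with quantile normalization (adjusted p = 0.0524), UGT85A2 without the variance trend (0.0637), and UGT88A1 with median centring (0.0648) and without the variance trend (0.0961).

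By family number, calls were spread over 10 of the 11 families measured, from 71 to 88. In family 71, 4 of 9 genes fell and all 9 changes were below 0, with a median of -0.37. Of the 9, however, 3 read under the pseudocount on all arrays and say little about change. In family 73, 2 of 7 fell (median -0.55), and in family 76, 2 of 8 fell and 1 rose (median -0.55). Family 84 had 3 falls in 5 genes, and 2 others read under the pseudocount on all arrays. Its median of -0.87 was the lowest of the families with more than 1 gene. Among the 47 genes, more rises than falls were found in family 74, with 2 rises and 1 fall in 3 genes. The same held for family 72, with 1 rise in 4 genes, and family 80, with its single gene. Genes read under another symbol are not in these counts. Of those, GT72B1 (UGT72B1) fell, UF3GT (UGT79B1) rose and SGT (UGT80A2) did not pass. In family 85, 1 of 5 genes fell (median -0.08), and in family 78 none of 3 passed. Families 87 and 88 had 1 gene each, and both fell. Differences between families were not tested.

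**Figure D3:**
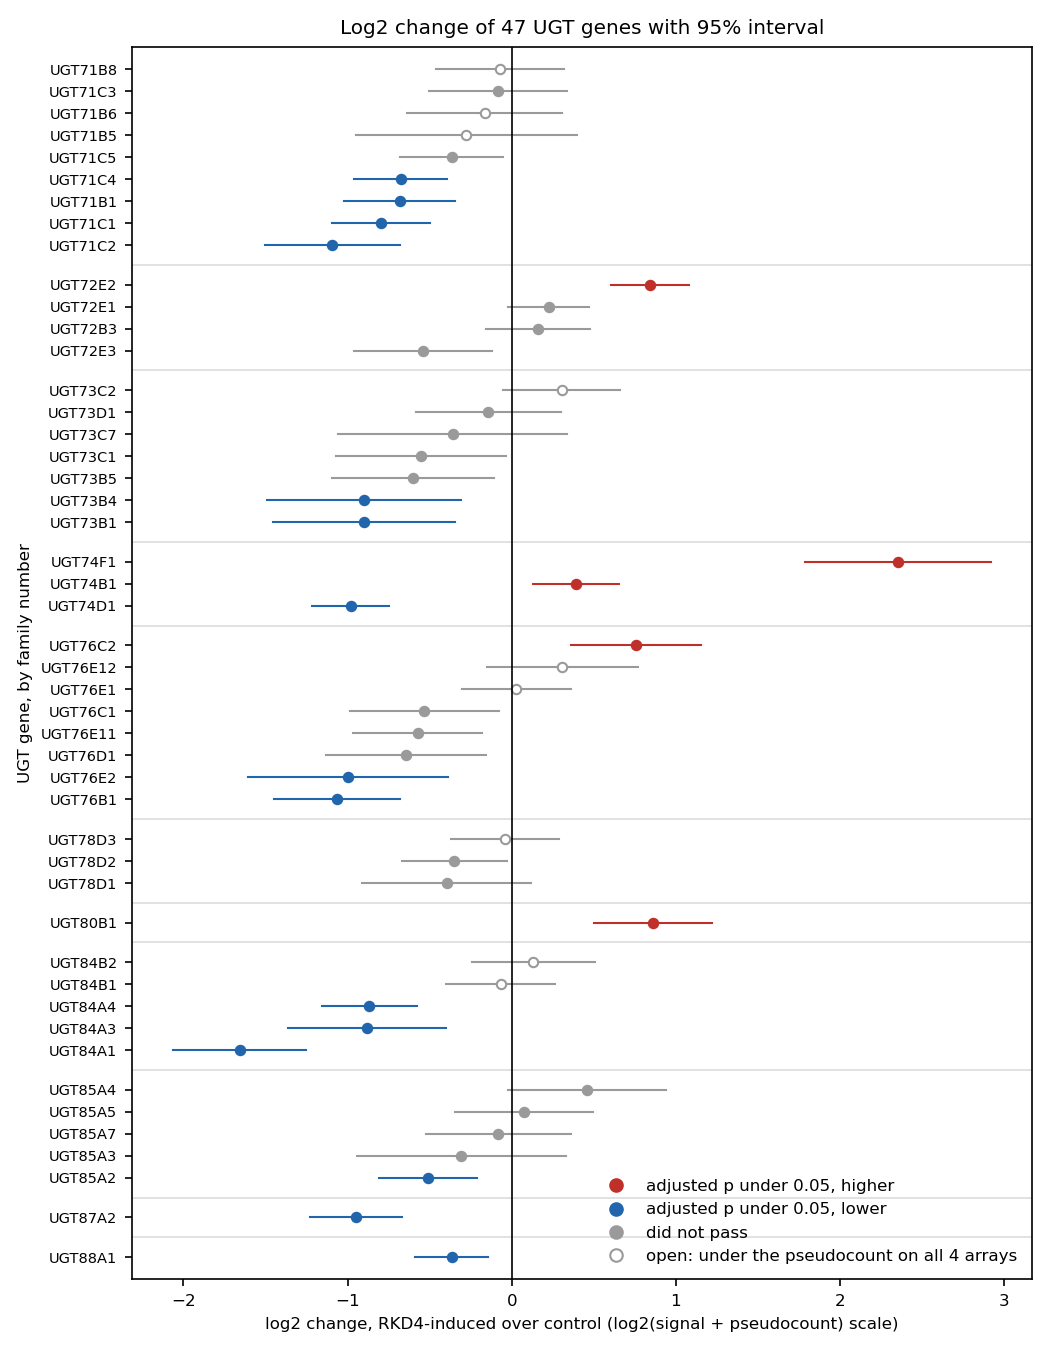
Log2 change with its 95% interval (x, RKD4-induced over control on the log2(signal + 32.4) scale) for each of the 47 UGT genes, grouped by family number (y). All 9 genes of family 71 lie below 0, and 3 of them read under the pseudocount on all arrays. Within family 74, UGT74F1 and UGT74B1 lie above 0 and UGT74D1 below it.

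Of the 27 genes that did not pass, 9 read under the pseudocount on all arrays and say little about change. They are UGT71B5, UGT71B6, UGT71B8, UGT73C2, UGT76E1, UGT76E12, UGT78D3, UGT84B1 and UGT84B2. For 14 of the other 18 the 95% interval lay between -1 and 1, so changes of more than 2-fold on this scale fell outside it. In 4 genes the interval reached below -1, and in none above 1. An unadjusted p under 0.05 was found in 8 of the 27, or 29.6%, against 16.7% of the 10688 genes that did not pass in all. In all 8 the change was below 0, as it was in 1195 of the 1787 such genes in all. These were UGT71C5, UGT72E3, UGT73B5, UGT73C1, UGT76C1, UGT76D1, UGT76E11 and UGT78D2. UGT76E11, with 187 and 205 in control and 114 and 128 in induced seedlings, lay closest to the threshold (-0.57 ± 0.16, adjusted p = 0.0519), and it passed with the filter on dim probe sets (0.0183), without the variance trend (0.0394) and with the replicate block (0.0466). With that filter UGT72E3 (adjusted p = 0.0307), UGT73B5 (0.0409) and UGT76C1 (0.0398) passed too. The filter tests fewer probe sets, and the variances were also fitted anew on those kept. UGT73B5, a neighbour and sister gene of UGT73B4, read 105 and 94.1 against 66.3 and 44.1 (-0.60 ± 0.20, adjusted p = 0.0869). Genes with small changes at readable levels were UGT85A5 (0.08 ± 0.17), UGT85A7 (-0.08 ± 0.18) and UGT73D1 (-0.14 ± 0.18). UGT85A4 lay at 0.46 ± 0.20 (adjusted p = 0.155). UGT73C1 (-0.55 ± 0.21), UGT73C7 (-0.36 ± 0.29) and UGT85A3 (-0.31 ± 0.26) each read above the pseudocount on 1 control array only.

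Many UGT genes lie beside one another. By the gene order of TAIR10.1, 31 of the 47 genes fell into 13 groups in which neighbouring members had at most 5 other protein-coding genes between them. The 3 UGT84A genes follow each other on chromosome 4 with no gene between them, and all fell. UGT71C2 and UGT71C1 adjoin each other on chromosome 2, and both fell, by 1.09 and 0.80. On chromosome 1 the adjoining UGT71C5, UGT71C4 and UGT71C3 lay at -0.37, -0.68 and -0.08, and only UGT71C4 passed. In the row UGT85A7, UGT85A2, UGT85A5 and UGT85A3 on the same chromosome only UGT85A2 passed. UGT76E1 and UGT76E2 adjoin each other on chromosome 5, where UGT76E1 read under the pseudocount and UGT76E2 fell. In no group did one member rise and another fall by the test. This says little, since UGT76C2 was the only gene in these groups that rose. Its neighbour UGT76C1 lay on the other side of 0 (-0.53 against 0.76) and did not pass. Neighbouring UGT genes are similar in sequence, and whether a probe set also reads a neighbour's transcript was not tested.

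**Figure D4:**
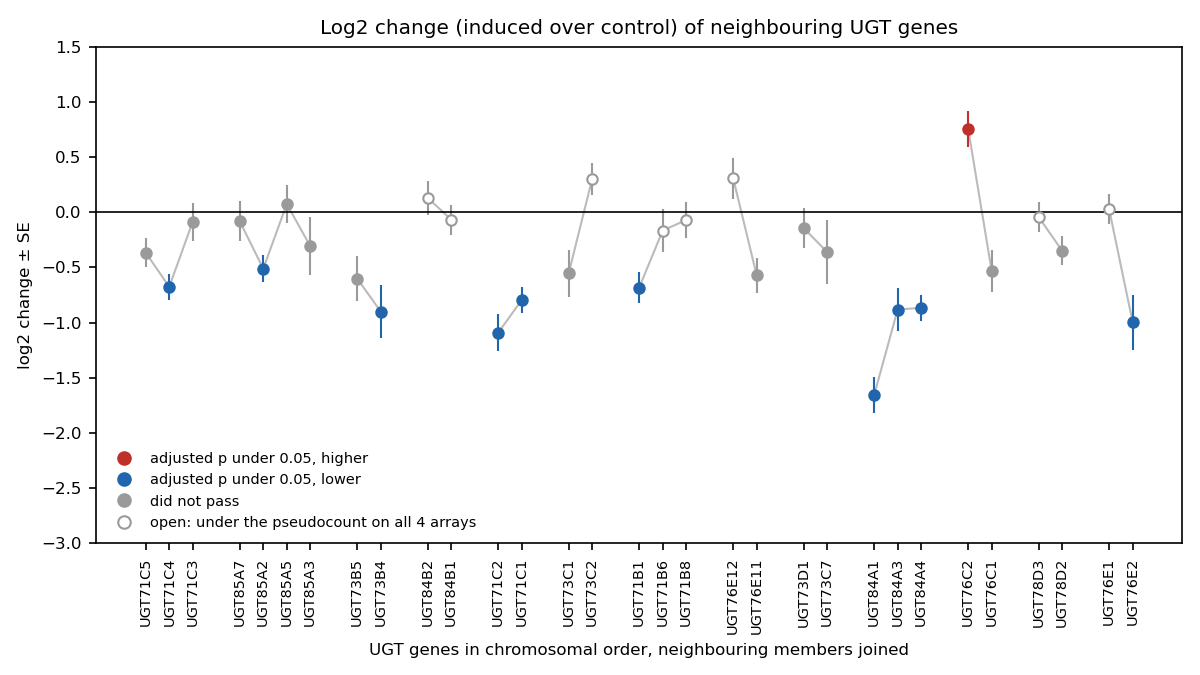
Log2 change ± SE (y, RKD4-induced over control, n = 2 arrays a group) of the 31 UGT genes with a UGT neighbour, in chromosomal order (x), with grey lines joining neighbours. The 3 UGT84A genes lie between -1.66 and -0.87, and UGT76C2 at 0.76 lies next to UGT76C1 at -0.53.

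The TAIR10.1 table names 64 UGT genes in all, counting older names. Of the 17 others, 9 have no probe set named here, among them UGT74F2, UGT84A2 and UGT85A1, 4 share a probe set with another gene, and 4 have a probe set under another symbol. Of those 4, UF3GT (AT5G54060), also called UGT79B1, which adds xylose to anthocyanins, read 294 and 233 in control and 979 and 697 in induced seedlings and rose by 1.55 ± 0.19 (adjusted p = 0.00373). GT72B1 (UGT72B1), an enzyme of monolignol aldehydes and chlorinated phenols, read 1453 and 1444 against 845 and 901 and fell by 0.71 ± 0.10 (adjusted p = 0.00500). SGT (UGT80A2), the other sterol glucosyltransferase gene, read 359 and 298 against 351 and 296, at -0.02 ± 0.15. AT5G54010 (UGT79B6) read under 10 on every array.

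Other genes of the same pathways were read for 16 of 160 listed genes, and 4 of 10 lists had none. In the phenylpropanoid list, with 4 of 21 genes read, 1 rose and 1 fell. ALDH2C4 (REF1), which makes ferulic and sinapic acid, the acids that UGT84A enzymes accept, read 2495 and 2743 in control and 5939 and 6513 in induced seedlings and rose by 1.24 ± 0.11 (adjusted p = 0.00118). HCT, an acyltransferase at the branch to monolignols, read 4355 and 4710.2 against 2767 and 2378 and fell by 0.81 ± 0.12. The monolignol glucosidase genes BGLU45 (-0.27 ± 0.11) and BGLU46 (-0.45 ± 0.16) did not pass. Of 17 flavonoid genes 3 were read, and DFR, an early enzyme of the anthocyanin branch, rose by 1.00 ± 0.13, from 897 and 928 to 1668 and 2061 (adjusted p = 0.00386). The anthocyanin acyltransferase gene AT5MAT (0.57 ± 0.16, adjusted p = 0.0528) and BAN (-0.12 ± 0.21), which read under the pseudocount, did not pass.

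For auxin 5 of 13 genes were read. GH3.17, which joins auxin to amino acids, read 853 and 1042 in control and 454 and 554 in induced seedlings and fell by 0.87 ± 0.15 (adjusted p = 0.0110). The other 4 did not pass. BGLU33, a glucosidase that frees abscisic acid from its glucose ester, was the one abscisic acid gene read of 13 and fell, with an adjusted p of 0.00350, from 401 and 536 to 161 and 152. BCAT4, an aminotransferase at the start of methionine-derived glucosinolates, was the one glucosinolate gene read of 22 and fell by 0.99 ± 0.15, while UGT74B1 of the core pathway rose. Neither of 2 salicylic acid genes passed, SAG101 (-0.10 ± 0.17) and BSMT1 (-0.41 ± 0.27). The lists for cytokinin, brassinosteroids, sterols and UDP-sugar donors had no gene read.

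With each array left out in turn, 6 of the 20 genes passed in every fit. These were UGT74F1 and UGT72E2 among the rises and UGT84A1, UGT84A4, UGT74D1 and UGT87A2 among the falls. The same 6 also passed under every other setting tried. Each such fit has 1 residual degree of freedom fewer, and with them 2 to 4 UGT genes rose and 5 to 8 fell. UGT genes that rose numbered 2 without control replicate 1, induced replicate 1 or induced replicate 2, and falls numbered 7, 8, 6 and 5 without control replicate 1, control replicate 2, induced replicate 1 and induced replicate 2. None of the 20 genes changed direction in these fits, and none could, since their groups do not overlap.

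**Figure D5:**
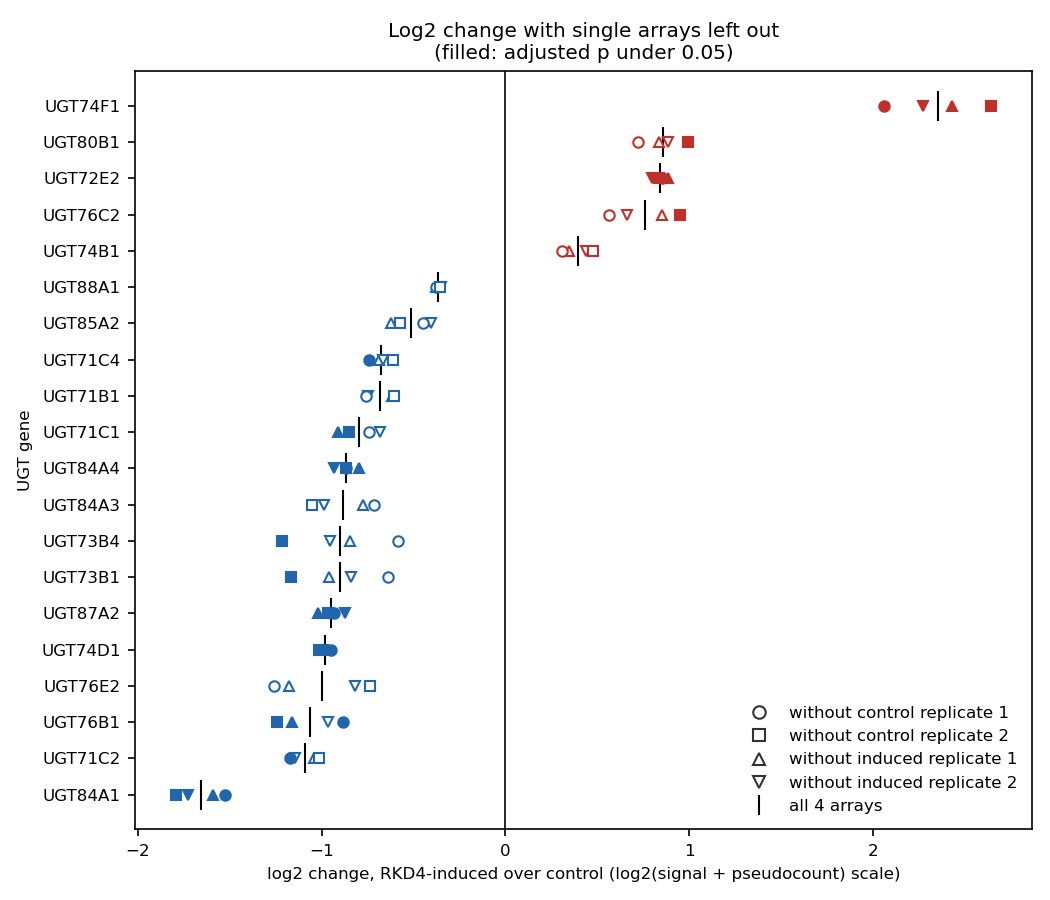
Log2 change (x, RKD4-induced over control on the log2(signal + 32.4) scale) of the 20 UGT genes that passed (y), from all 4 arrays (vertical tick) and with 1 array left out (symbols, filled where the adjusted p stayed under 0.05). For each gene the symbols stay on one side of 0, which follows from groups without overlap. UGT74F1, UGT72E2, UGT84A1, UGT84A4, UGT74D1 and UGT87A2 are filled throughout.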

How the data were processed

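Per the labels' protocols, biotin-labelled cRNA of 4 seedling pools, made with a 3' IVT kit, was read on Affymetrix arrays. The deposited values are intensity, a linear signal per probe set that the authors summarised and scaled before deposit. The submitters' processing notes name GCOS, without version or settings. Of 22810 probe sets 64 control probe sets were left out, and log2(signal + 32.4) of 22746 was fitted with limma 3.58.1 in R 4.3.3, with the group as the only term and variances moderated along the mean signal (2 residual and 4.12 prior degrees of freedom). Exact permutation tests were not run, since with 2 arrays a group their smallest p is 0.333. The labels call the 2 pools of a group biological replicates, but do not say whether they were separate cultures. The p-values therefore measure only the spread between these pools, and the number of arrays limits the precision.

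The platform annotation gave the names: 13513 probe sets have 1 gene there, and 13436 of these matched the TAIR10.1 gene table, which gave symbols and gene order. No genome build is known for the array, so no coordinates are printed. Substrate classes and pathway lists were written from general knowledge, and the UGT genes and all lists were chosen with earlier results of these data known. Every UGT gene could be named. Pathway genes were named where they passed, up to 4 a list, or else up to 2 with the largest change. From the pathway lists 2 genes were dropped, since the table does not hold their names. Alternatives were 2 other scalings, 2 other pseudocounts, a filter on dim probe sets, the replicate number as a block, no variance trend, 1 probe set per gene, UGT genes above the pseudocount only, and leaving out each array.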

Additional observations from a re-analysis of the deposited data

How the results depend on the processing

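All alternatives were set with earlier results of these data known. Under other scalings, pseudocounts, filters and models the UGT genes that rose numbered 4 or 5 and those that fell 13 to 19. The 19 falls came with the filter on dim probe sets. With it more probe sets passed in all, 6261 of 15922 against 4954 of 22746. The replicate block gave 5 and 17 and raised the count over all probe sets from 4954 to 6301. It ended no UGT call and added UGT76E11 and UGT78D2. Same-numbered arrays' deviations correlated at 0.0807, and the labels do not tie them to a day or batch, so no pairing was assumed. With 1 probe set per gene 2538 passed over all genes, where fewer are tested. With an array left out, 1835 to 2223 probe sets passed, 2 to 4 UGT genes rose and 5 to 8 fell, and a lone array is then given the spread of the other group. The median change of the UGT genes was -0.53 with a pseudocount of 1 and with the filter, which keeps 33 of 47 genes, -0.52 over the 38 genes above the pseudocount on at least 1 array, and between -0.48 and -0.25 with an array left out. None of the 20 genes that passed turned direction in any setting, which for left-out arrays follows from groups without overlap. Among the other 27, signs turned for UGT71B8 (0.00211, quantile normalization) and UGT78D3 (0.00695, median centring). With an array left out they turned for UGT71B5 (-0.60 to 0.0442), UGT71B6 (-0.38 to 0.0539), UGT73C7 (-0.76 to 0.0390), UGT76E1 (-0.0174 to 0.0713), UGT85A5 (-0.0472 to 0.20) and UGT85A7 (-0.18 to 0.0199). Of 160 values of the 20 genes with all arrays in other settings, 10 lost the threshold, and of 80 with an array left out 45 did. The cause of these losses was not tested. The choice of another probe set was not run, since each gene has 1. Signals under the pseudocount limit what can be read for 9 of 47 genes.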
